A study of Mus musculus with 12 samples.

Results

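The colony-stimulating factor and IL3 receptors are described here by 6 mouse genes, Csf1r, Csf3r, Csf2ra, Il3ra, Csf2rb and Csf2rb2. The rule takes them by gene symbol and sets no threshold on a measured value, and each has 1 row among the 43279 genes of the deposited table. Polyadenylated RNA was sequenced from 1000 cells per mouse, sorted from femur, tibia and ilium marrow. The gate took KIT+ SCA1+ FLT3- CD48- cells without lineage markers, a population in which hematopoietic stem cells with long and short repopulating life are found. The wild-type group held 6 naive adult C57BL/6 mice and the Osmr-/- group 5 naive adult mice without the oncostatin M receptor gene, each library from a different mouse. The labels name no treatment for either group and do not name an allele or a cell type in which Osmr is deleted. CD150 was stained but is not among the sorting markers, so the gate is wider than one that selects on it. The study asked how the absence of OSMR signalling in bone marrow niches affects these cells. The Osmr-/- sample numbered 4 was not analysed here.

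These receptors carry signals from cytokines that drive the production and survival of myeloid cells. CSF1R is a receptor tyrosine kinase for CSF1 and IL34 and is best known from monocytes and macrophages, while CSF3R pairs with itself to bind CSF3 (G-CSF) and is best known from neutrophils. CSF2RA and IL3RA are the ligand-specific alpha chains for CSF2 (GM-CSF) and IL3, and they signal through the common beta chain CSF2RB; mice carry a further beta chain gene, Csf2rb2, whose product serves IL3 alone.

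The beta chain genes are close copies, which bears on how reads are assigned to them, so stretches of both are shown first. In GRCm38 with GENCODE M21 annotation, Csf2rb lies on the plus strand at chr15:78325752-78353847 and Csf2rb2 on the minus strand at chr15:78282507-78305721, with 20031 bases between them. Osmr lies on the same chromosome, 71407.538 kilobases away. The coding sequences of the transcript annotated first for each gene, 2691 bases in Csf2rb and 2637 in Csf2rb2, aligned over 2629 ungapped columns, of which 2507 (95.4%) were identical. The longest identical run was 242 bases. In the whole transcripts, 18.9% of the 50-base stretches, 11% of the 75-base stretches and 7.16% of the 100-base stretches of Csf2rb occur in Csf2rb2, so a read of such a length has a place of its own over most of either transcript. The read length was not given in the sources used here, and no length was assumed. The next sequences are the 90-base windows of coding sequence within 1 exon that have the fewest and the most mismatches, printed 5′ to 3′ on each gene's own strand, with mismatched bases in capitals. The first pair has 0 mismatches and comes from chr15:78341658-78341747 (plus strand) and chr15:78291563-78291652 (minus strand).
Csf2rb: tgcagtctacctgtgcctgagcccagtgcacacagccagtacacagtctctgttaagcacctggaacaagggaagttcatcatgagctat
Csf2rb2: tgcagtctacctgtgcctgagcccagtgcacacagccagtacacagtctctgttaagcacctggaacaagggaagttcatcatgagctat
The second pair has 16 mismatches and comes from chr15:78338897-78338986 (plus strand) and chr15:78294345-78294434 (minus strand).
Csf2rb: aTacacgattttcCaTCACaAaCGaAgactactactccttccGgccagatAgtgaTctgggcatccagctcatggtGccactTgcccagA
Csf2rb2: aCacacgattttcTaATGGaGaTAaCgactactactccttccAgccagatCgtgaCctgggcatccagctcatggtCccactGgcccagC
A fragment that falls in a window like the first cannot be assigned to 1 of the genes, while a fragment in a window like the second can. How the authors' counting treated reads that fit both genes was not given in the sources used here, so the levels of Csf2rb and Csf2rb2 are uncertain to that extent.

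Levels are given as normalised read counts, which are a library's reads for a gene divided by its DESeq2 size factor. Library totals ran from 9500968 to 22144976 reads. Osmr itself was near 0 in both groups, with 13 reads over all wild-type libraries and 4 over all Osmr-/- libraries, so it could not check the labels at this depth. Transcripts of the positive gate markers were high in every library, with normalised counts of 3312 to 5183 for Kit. Transcripts of genes gated against were also present, with 229 to 735 for Flt3 and 275 to 1446 for Cd48. The Osmr-/- library numbered 3 stood apart in mature neutrophil markers, whose 14 genes summed to a normalised count of 26073, beside 95.7 to 679 in the other Osmr-/- libraries and 121 to 358 in the wild type, and each of the 14 had reads in some library. The wild-type libraries numbered 1 to 3 stood apart in erythroid markers, whose 18 genes summed to 55912 to 63521, beside 20273 to 22896 in wild-type libraries 4 to 6 and 13407 to 20191 in the Osmr-/- libraries. Values are therefore also given within the libraries numbered 1 to 3 and 4 to 6, a split by label number that was chosen after the values were seen and that the labels do not call a batch.

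All 6 receptor genes were transcribed at a low to middling level in these cells. Divided by the length of the longest coding transcript, the mean over 11 libraries was 76.0 normalised counts per kilobase for Csf2ra, 74.5 for Csf3r, 33.2 for Csf2rb, 18.0 for Csf1r, 17.3 for Csf2rb2 and 8.57 for Il3ra. On the same scale Kit, the stem cell factor receptor, stood at 776. Among 12558 tested genes with a length, Csf2ra and Csf3r lay at percentiles 48.9 and 48.5 and Il3ra at percentile 7.31. The order turned by genotype for some neighbours: Csf2ra and Csf3r had means of 76.0 and 57.1 in the wild type and 76.0 and 95.3 in Osmr-/-, and Csf1r and Csf2rb2 had 20.8 and 13.3 in the wild type and 14.8 and 22.1 in Osmr-/-. Of the 5 pairs of neighbours in this order, Csf3r and Csf2rb differed beyond their spread between libraries: Csf3r was higher in 11 of 11 libraries, by 41.3 ± 33.7 counts per kilobase (SD, n = 11; exact paired permutation test, two-sided, p = 0.000977, adjusted p = 0.00488). The other neighbours did not pass this test, with exact adjusted permutation p-values of 0.930 for Csf2ra and Csf3r, 0.166 for Csf2rb and Csf1r, 0.930 for Csf1r and Csf2rb2, and 0.184 for Csf2rb2 and Il3ra. The order was taken from these same values, so neither the pairs nor the sign of each difference was set in advance. The Csf2rb level also carries the uncertainty of reads that fit both beta chain genes. Csf2ra was the highest of the receptors in 6 libraries and Csf3r in the other 5, and Il3ra was the lowest in 7. These are levels per cell pool: in bulk samples, fewer cells that express a gene and less RNA per cell cannot be told apart.

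**Figure D1:**
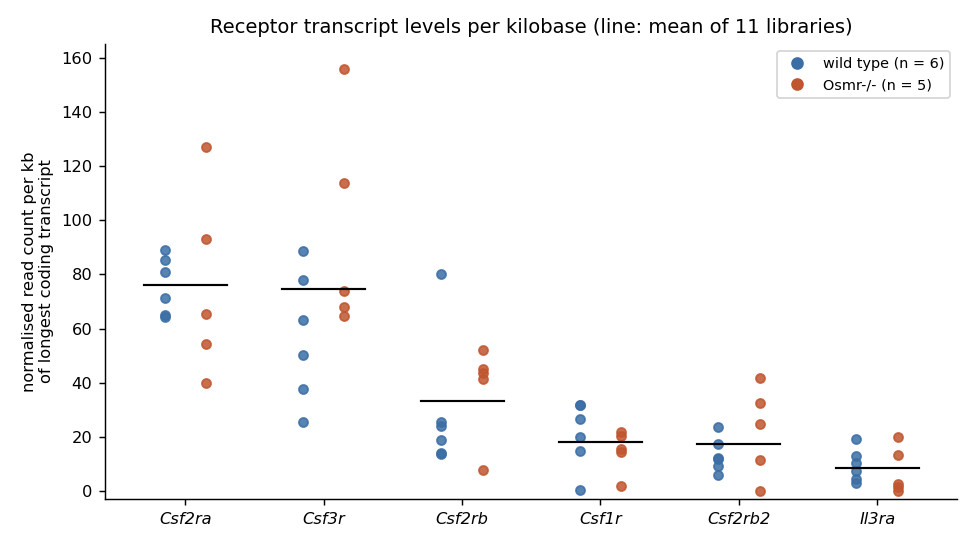
Normalised read count per kilobase of the longest coding transcript (vertical axis) for the 6 receptor genes in each of 6 wild-type (blue) and 5 Osmr-/- (orange) libraries; lines are means of all 11 libraries. Csf2ra and Csf3r (means 76.0 and 74.5) sit above Csf2rb (33.2), and Il3ra (8.57) is lowest.

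The comparison of Osmr-/- with wild-type cells found no receptor gene past the threshold. It was made with limma on log2(normalised count + 1) over the 13358 genes that reached 10 normalised counts in 5 or more libraries. All 6 receptor genes passed that filter, in some cases without reaching 10 everywhere: Il3ra did so in 5 wild-type and 2 Osmr-/- libraries. With Benjamini-Hochberg adjustment, 0 of 6 receptor genes had an adjusted p under 0.05, beside 3 of 13358 genes (0.0225%). At an unadjusted p under 0.05 the count was again 0 of 6, beside 2401 genes (18%). For none of the 6 were the groups without overlap, beside 336 genes (2.52%). The edgeR and DESeq2 tests on recovered reads also called 0 of the 6, as did the authors' deposited table, where 615 of 13802 genes (4.46%) had an adjusted p under 0.05. The median log2 fold change over all tested genes was -0.05. The intervals of the receptor genes are wide, so a p that misses the threshold does not show equal levels.

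**Figure D2:**
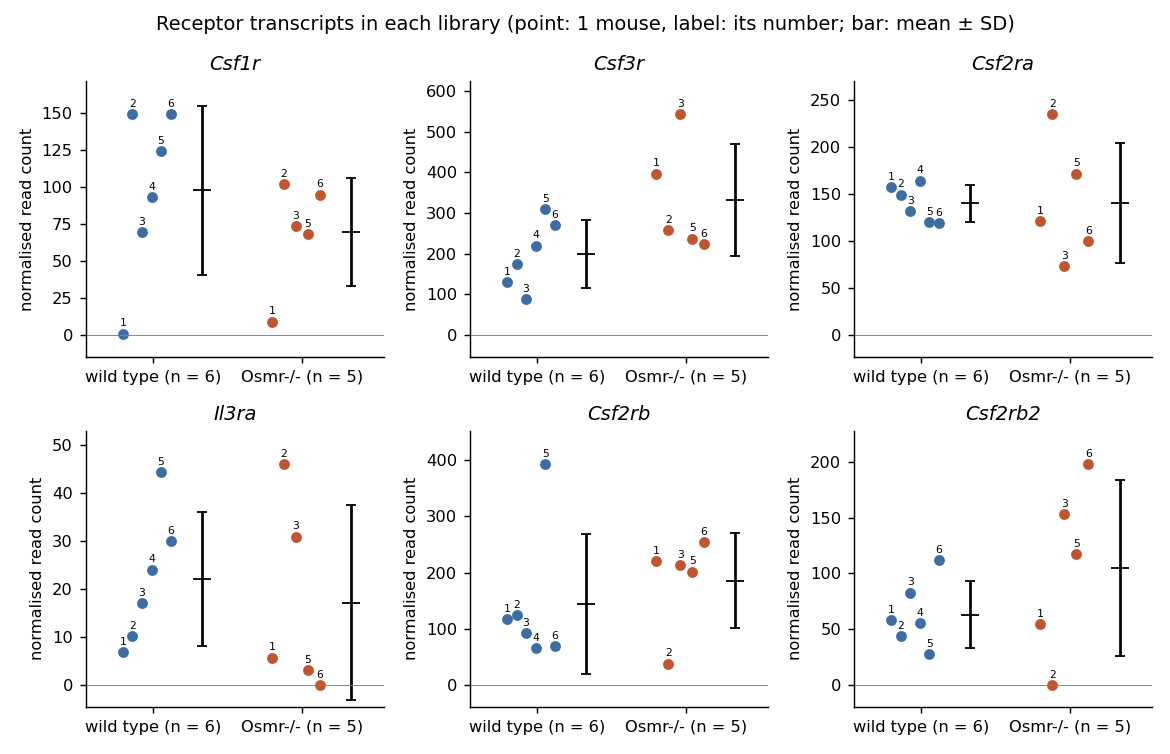
Normalised read count (vertical axis, own scale per panel) of each receptor gene in the 6 wild-type (blue) and 5 Osmr-/- (orange) libraries; each point is 1 mouse labelled with its number, and bars are mean ± SD. The groups overlap in all 6 panels, and the libraries numbered 1 are lowest for Csf1r in both genotypes.

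**Figure D3:**
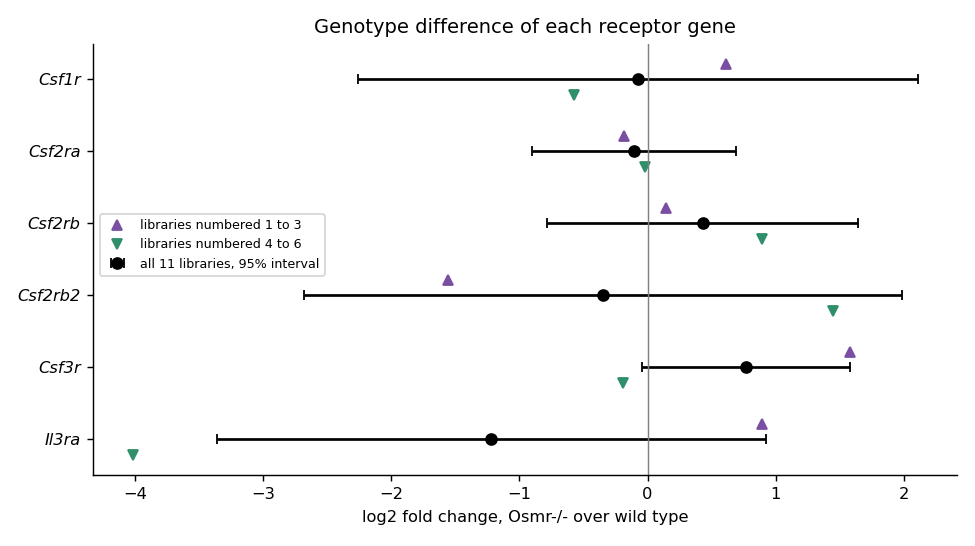
Log2 fold change of Osmr-/- over wild type (horizontal axis) for each receptor gene: black points and bars are the fit to all 11 libraries with its 95% interval, and triangles are the fits within libraries numbered 1 to 3 and 4 to 6. All 6 intervals cross 0, and the triangles lie on opposite sides of 0 for Csf1r, Csf2rb2, Csf3r and Il3ra.

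Csf3r, the CSF3 receptor (chr4:126024550-126044440, plus strand), had the lowest p of the receptor genes. Its normalised counts in the wild type were 130, 175, 88.7, 220, 309 and 271 in libraries 1 to 6, and in the Osmr-/- group 396, 258, 543, 237 and 224 in libraries 1, 2, 3, 5 and 6. All 5 Osmr-/- values lay above the wild-type median of 197, but only libraries 1 and 3 exceeded every wild-type library. The means were 199 ± 83.8 (SD, n = 6) in the wild type and 332 ± 137 (SD, n = 5) in Osmr-/-. The log2 fold change was 0.77 (SE 0.382, 95% interval -0.05 to 1.58; limma adjusted p = 0.305). The authors' deposited table gives 0.64 with a DESeq2 adjusted p of 0.266, and the DESeq2 run here gave 0.74 with an adjusted p of 0.274. The authors' fold change and its SE (0.326 beside 0.378) are both smaller, at nearly the same unadjusted DESeq2 p (0.0507 beside 0.0508). The sizes of these fold changes were therefore not compared.

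The Csf3r values within the label number sets lay on opposite sides of 0, a difference that did not pass its test. Among libraries 1 to 3 the mean was 131 in the wild type and 399 in Osmr-/-, a log2 fold change of 1.58 (limma adjusted p = 0.105), and among libraries 4 to 6 it was 266 and 231, a log2 fold change of -0.19 (limma adjusted p = 0.889). The change of the genotype difference from the first set to the second was -1.78 (SE 0.597; limma interaction, adjusted p = 0.369). Csf3r was among 1316 of 13358 genes (9.85%) with an unadjusted interaction p under 0.05, and 0 genes had an adjusted one under 0.05. The wild-type libraries alone went from 131 to 266 between the sets. Csf3r was also highest in Osmr-/- library 3, the library with the high neutrophil sum, and second highest in Osmr-/- library 1, whose neutrophil sum of 679 was the next highest. Some other libraries departed from this order. Wild-type library 3 had the highest wild-type neutrophil sum, 358, and the lowest Csf3r of all libraries, 88.7. Wild-type library 5 had a Csf3r of 309 at a sum of 159, and Osmr-/- library 2 had 258 at a sum of 643. Without Osmr-/- library 3 the Csf3r log2 fold change was 0.57 (limma adjusted p = 0.536). The part of neutrophil transcripts in the Csf3r level was not tested.

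**Figure D4:**
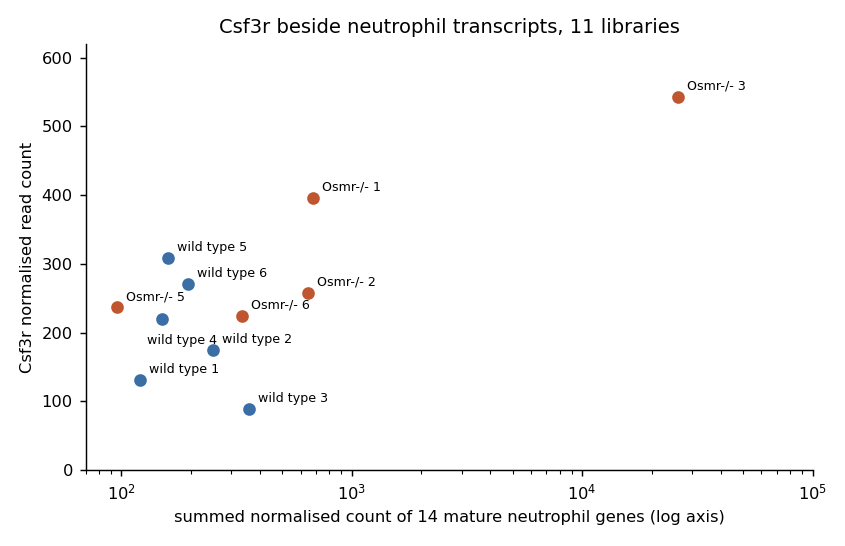
Csf3r normalised read count (vertical axis) against the summed normalised count of 14 mature neutrophil genes (horizontal axis, log scale) in the 6 wild-type (blue) and 5 Osmr-/- (orange) libraries. Osmr-/- library 3 lies far to the right at 26073 and has the highest Csf3r value, 543; the other 10 libraries lie between 95.7 and 679.

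Csf1r, the CSF1 and IL34 receptor (chr18:61100598-61132149, plus strand), was nearly absent from 1 library of each genotype. Its normalised counts in wild-type libraries 1 to 6 were 1.04, 149, 69.5, 93.1, 124 and 149. In Osmr-/- libraries 1, 2, 3, 5 and 6 they were 9.06, 102, 73.5, 67.9 and 94.7. The lowest value in each group came from the library numbered 1, where wild-type library 1, the most deeply sequenced of all, held 2 reads of Csf1r. The means were 97.6 ± 56.7 (SD, n = 6) and 69.4 ± 36.5 (SD, n = 5), and the log2 fold change was -0.07 (SE 1.03, 95% interval -2.26 to 2.113; limma adjusted p = 0.979). Its sign turned with single libraries: the log2 fold change was 0.54 without Osmr-/- library 1 and 0.20, 0.066, 0.15 and 0.20 without wild-type libraries 2, 4, 5 and 6, while it was -1.04 without wild-type library 1 and -0.43 without both libraries numbered 1. No direction is given for Csf1r.

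A near-absent library was not particular to Csf1r. The summed normalised count of 17 monocyte and macrophage markers was 15270 in wild-type library 1, the second highest of all libraries, and 5809 in Osmr-/- library 1, the second lowest. It ran from 6501 to 15868 in the wild type and from 4771 to 7618 in Osmr-/-, and its part in the Csf1r level was not tested. Among 5010 tested genes with a mean normalised count from 50 to 300, a range set after the values were seen, 1113 (22.2%) had at least 1 library under 10% of the gene's median. Such values were most frequent in wild-type library 1 (286 genes), Osmr-/- library 3 (274), Osmr-/- library 2 (256) and Osmr-/- library 1 (197), against 35 to 87 genes in each other library. Both libraries numbered 1 were low together for 11 genes. Hmgxb3, which overlaps the 3′ end of Csf1r by 873 bases on the opposite strand, had 14 in wild-type library 1, 38.5 in Osmr-/- library 1 and 33.2 in Osmr-/- library 6, against 70.5 to 122 elsewhere. The strand setting of the counting was not given in the sources used here, so reads in the overlap cannot be told apart.

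Csf2ra, the GM-CSF alpha chain (chr19:61223957-61228429, minus strand), had equal group means and unequal spreads. The wild-type values of 157, 150, 132, 165, 120 and 119 gave 140 ± 19.5 (SD, n = 6). The Osmr-/- values of 121, 235, 73.5, 172 and 101 gave 140 ± 64.1 (SD, n = 5). Osmr-/- libraries lay on either side of the wild-type range, with 2 above it and 2 below it. The log2 fold change was -0.11 (SE 0.372, 95% interval -0.90 to 0.69; limma adjusted p = 0.915), the narrowest interval of the 6. Its within-group SD of 0.459 on the log2 scale lay at percentile 4.6 of 500 genes of like level, so Csf2ra was among the steadier transcripts of its abundance.

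Il3ra, the IL3 alpha chain (chr14:14346275-14356011, plus strand), was the scarcest receptor transcript, with 146 reads over the wild-type group and 71 over the Osmr-/- group. Its normalised counts were 6.76, 10.1, 17.1, 24.1, 44.4 and 30.0 in wild-type libraries 1 to 6 and 5.66, 46.1, 30.9, 3.09 and 0 in Osmr-/- libraries 1, 2, 3, 5 and 6. The highest and the lowest of all 11 values were both Osmr-/- libraries. For library 6, a count of 0 allows a normalised count of up to 2.93, which covers counting error only. The means were 22.1 ± 13.9 (SD, n = 6) and 17.2 ± 20.3 (SD, n = 5). The log2 fold change was -1.22 (SE 1.01, 95% interval -3.36 to 0.92; limma adjusted p = 0.547). Its size depended on the scale: it was -0.46 with a pseudocount of 10, -0.39 in edgeR, -0.37 in DESeq2 and -0.18 in the authors' deposited table. The authors' SE is again smaller than in the DESeq2 run here (0.475 beside 0.961), at nearly the same unadjusted DESeq2 p (0.705 beside 0.704).

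For Il3ra, too, the values within the label number sets lay on opposite sides of 0, a difference that did not pass its test. The mean was 11.3 in wild-type and 27.6 in Osmr-/- libraries 1 to 3, and 32.8 in wild-type and 1.54 in Osmr-/- libraries 4 to 6. The log2 fold changes were 0.90 and -4.02, of which the second depends on the pseudocount because 1 of its Osmr-/- libraries held 3 reads and the other none. Their difference was -4.91 (SE 1.58; limma interaction, adjusted p = 0.343), and Il3ra too was among the 9.85% of genes with an unadjusted interaction p under 0.05. An antisense gene, Gm48860, overlaps the first 990 bases of the annotated Il3ra locus.

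Csf2rb, the common beta chain, had a higher mean in Osmr-/- than in wild-type libraries, a difference that did not pass the threshold. The wild-type values were 117, 124, 91.7, 66.0, 393 and 68.3, and the Osmr-/- values were 221, 37.8, 213, 202 and 255. Wild-type library 5 was the highest of all 11 and Osmr-/- library 2 the lowest, while the other 4 Osmr-/- libraries exceeded the other 5 wild-type libraries. Those libraries were set aside by their own values, so the separation of the rest is a description only. The share of all tested genes that separate after such a removal was not computed. The means were 143 ± 125 (SD, n = 6) and 186 ± 84.9 (SD, n = 5). The log2 fold change was 0.43 (SE 0.569, 95% interval -0.78 to 1.64; limma adjusted p = 0.727). It was 0.78 without wild-type library 5 and 0.93 without Osmr-/- library 2, with limma adjusted p-values of 0.482 and 0.342. Leaving out any other single library gave 0.25 to 0.45.

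Csf2rb2, the IL3-specific beta chain, had no read in Osmr-/- library 2. Its values were 57.7, 43.7, 82.6, 55.1, 27.2 and 112 in the wild type and 54.4, 0, 153, 117 and 198 in Osmr-/-. Osmr-/- libraries 3, 5 and 6 lay above every wild-type library, library 1 within the wild-type range and library 2 below it, where a count of 0 allows a normalised count of up to 3.55. The means were 63.0 ± 30.0 (SD, n = 6) and 105 ± 78.7 (SD, n = 5), whereas the log2 fold change had the opposite sign at -0.35 (SE 1.10, 95% interval -2.68 to 1.99; limma adjusted p = 0.903). Without Osmr-/- library 2 it was 1.03 (limma adjusted p = 0.346), and edgeR and DESeq2, which model the reads themselves, gave 0.74 and 0.73 over all libraries, with adjusted p-values of 0.729 for edgeR and 0.695 for DESeq2. No direction is therefore given for Csf2rb2. Its within-group SD of 2.17 (log2 scale) lay at percentile 93.2 of 500 genes of like level.

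The balance between the beta chain genes had a wide range in either genotype. Csf2rb2 took 33%, 26.0%, 47.4%, 45.5%, 6.47% and 62.1% of the reads of both genes in wild-type libraries 1 to 6. In Osmr-/- libraries 1, 2, 3, 5 and 6 it took 19.8%, 0%, 41.9%, 36.8% and 43.8%. The means were 36.7% ± 19.4 (SD, n = 6) and 28.4% ± 18.5 (SD, n = 5), and the ranges overlapped. With the reads of each group pooled, the order was the other way, at 31.0% in the wild type and 36.3% in Osmr-/-, so no direction is given. As the counting precision of single shares, the 95% Wilson interval was 4.49% to 9.26% for wild-type library 5 (27 of 417 reads) and 54.7% to 68.9% for wild-type library 6 (108 of 174 reads). The 0 of 32 reads in Osmr-/- library 2 has a Wilson upper limit of 10.7%. These intervals cover counting error only, since PCR copies of a molecule are counted as separate reads. The shares were computed from the authors' counts, which include whatever was done with reads that fit both genes.

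**Figure D5:**
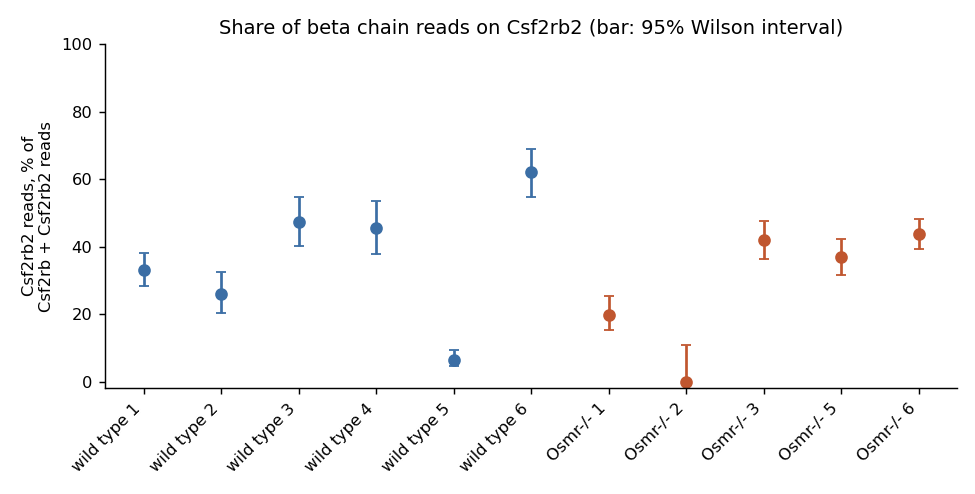
Share of reads on Csf2rb2 among all reads on Csf2rb and Csf2rb2 (vertical axis, percent) in each library; points are the share and bars its 95% Wilson interval, for 6 wild-type (blue) and 5 Osmr-/- (orange) libraries. The shares run from 0% in Osmr-/- library 2 to 62.1% in wild-type library 6, and the genotypes overlap.

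No pair of receptor genes had a correlation across the 11 libraries that passed adjustment. Over their 15 pairs, Pearson's r of log2 levels ran from -0.70 (Csf2ra and Csf2rb2) to 0.53 (Csf2rb and Csf2rb2), with a lowest adjusted permutation p of 0.305. For Csf2ra and Csf2rb2 the permutation p was 0.0232 before adjustment, Spearman's rho was -0.50 (permutation p = 0.122), and r was -0.27 without the 2 libraries farthest from the median of Csf2ra. Within libraries 1 to 3 and 4 to 6 their r was -0.83 and -0.23, where the second set holds 5 libraries. For Csf2rb and Csf2rb2 it was 0.86 and -0.16. Osmr-/- library 2 combined the highest Csf2ra and Il3ra values with the lowest Csf2rb and Csf2rb2 values. As a description of pattern over the same libraries, with r the highest among 13358 tested genes, the genes most like each receptor were Atp1b1 (0.96) and Fen1 (0.95) for Csf1r, Hsph1 (0.94) and Snord100 (0.92) for Csf3r, Il18r1 (0.90) and 1700028E10Rik (0.88) for Csf2ra, Intu (0.90) and Nop58 (0.88) for Il3ra, Eps8l2 (0.87) and Adamts6 (0.86) for Csf2rb, and Atxn7l2 (0.97) and Slc7a7 (0.94) for Csf2rb2. On the log2 scale the spread of Csf1r comes largely from both libraries numbered 1, and that of Csf2rb2 largely from Osmr-/- library 2. The r values of their partner genes were not recomputed without those libraries.

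Apart from Csf1, transcripts of the ligands were scarce or missing in the sorted cells. Csf1 had a mean of 34.7 normalised counts over all libraries. Per kilobase of the longest coding transcript this was 8.30, close to the 8.57 of Il3ra. Csf1 was the only 1 of 6 ligand genes that passed the filter, with a wild-type range of 2.01 to 63.1 and an Osmr-/- range of 0 to 90.2. Its log2 fold change was 0.01 (SE 1.19; limma adjusted p = 0.997). Il3 had no read in any library. Csf2 and Csf3 had a highest value of 1.03 and 1.18, Il34 of 1.13 and Il5 of 3.09, each at the level of 1 to 3 reads. Il5ra, the IL5 alpha chain that would share Csf2rb, had 1 read in all.

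Among 30 tested genes of the signalling machinery used by these receptors, 0 passed the threshold, 19 had a log2 fold change above 0 and the median was 0.12. Over all tested genes 46.8% lay above 0 and 53.2% below. Jak2, the kinase bound to the beta chain, had a log2 fold change of 0.51 (limma adjusted p = 0.249). The adaptor Grb2 had -0.90 (limma adjusted p = 0.131), with 4 of 5 Osmr-/- libraries below every wild-type library. Of 15 tested STAT5 target genes 0 passed, 6 lay above 0 and the median was -0.03. Of these, Ccnd2, a D-type cyclin, was below every wild-type library in 5 of 5 Osmr-/- libraries (log2 fold change -0.70; limma adjusted p = 0.121), and the signalling inhibitor Socs2 was above every wild-type library in 4 of 5 (0.92; limma adjusted p = 0.134). Groups without overlap, as for Ccnd2, were found for 336 of 13358 tested genes (2.52%). The share of genes with 4 of 5 Osmr-/- libraries beyond the wild type, as for Grb2 and Socs2, was not computed. Grb2, Ccnd2 and Socs2 were named for the low p in their lists, so these counts are not separate findings. Of 15 tested related receptors 0 passed and the median was -0.36. Epor, the erythropoietin receptor, had -1.90 (limma adjusted p = 0.175), and Il6st, the shared signalling chain that also pairs with OSMR, had -1.08 (limma adjusted p = 0.287).

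Genes that mark myeloid fates were described in the same way. The genes named have the lowest p of their list. They are to be read beside all tested genes, of which 46.8% lay above 0 and 2.52% had groups without overlap. Of 21 tested myeloid transcription factors 0 passed, 12 lay above 0 and the median was 0.16, with Gfi1b at -1.39 and Myb at 0.82 (limma adjusted p = 0.129 and 0.137). Of 16 granulocyte and monocyte progenitor markers 0 passed, 8 lay above 0, 8 lay below and the median was -0.01. The lowest p belonged to Plac8, at 1.31 (limma adjusted p = 0.0824) and above every wild-type library in 5 of 5 Osmr-/- libraries, then to Ms4a3, at 1.29 (limma adjusted p = 0.239). The next by p, Mpo at -1.31 and Clec12a at -2.06, lay below 0 (limma adjusted p = 0.283 and 0.340). All 5 tested mature neutrophil markers lay above 0 with a median of 1.95 and 0 passed; S100a8 had 2.81 and Camp 1.95 (limma adjusted p = 0.200 and 0.410), and both were highest in Osmr-/- library 3. Of 11 monocyte and macrophage markers 0 passed and the median was -0.45, with Lyz2 at -0.67 and Cd163 at -1.12 (limma adjusted p = 0.247 and 0.320). Of 4 mast cell and basophil markers 0 passed and the median was -0.13, with Il1rl1 at -2.55 and Srgn at 0.33 (limma adjusted p = 0.333 and 0.547).

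Markers of other cells gave 1 gene past the threshold. Of 16 tested erythroid markers 15 lay below 0, the median of their log2 fold changes was -2.18, and 1 passed: Rhd, a red cell blood group gene, fell by 6.05 on the log2 scale (limma adjusted p = 0.0454). The Rhd call was lost in 15 of 26 other settings, among them edgeR (adjusted p = 0.0761), no filter (0.135) and leaving out wild-type library 1, 2, 3, 4 or 5 or Osmr-/- library 2, 3 or 6. Over these settings its limma, edgeR and DESeq2 adjusted p ran from 0.000183 to 0.352. The exception above 0 was the globin Hbb-bt at 2.02 (limma adjusted p = 0.0640). Over all tested genes 53.2% lay below 0. The erythroid sum was 55912 to 63521 in wild-type libraries 1 to 3 and 20273 to 22896 in wild-type libraries 4 to 6. It was 13407 to 20191 in the Osmr-/- libraries. None passed among 12 megakaryocyte, 5 lymphocyte, 5 dendritic cell and 4 stromal and endothelial markers, with medians of -0.23, 0.08, -0.46 and -0.13. Their genes of lowest p were Selp at 2.58 and Gp1bb at -2.06 (limma adjusted p = 0.0967 and 0.248), Cd79b at -0.92 and Cd79a at 3.65 (0.179 and 0.189), Cd74 at -1.35 and Tcf4 at 0.33 (0.105 and 0.527), and Pdgfrb at 0.77 and Col1a2 at -1.31 (0.442 and 0.629). Of 20 stem cell and gate markers 0 passed, 12 lay above 0, 8 lay below and the median was 0.20. The 2 of lowest p, named next, had groups without overlap, as did 2.52% of all tested genes. Ptprc, the pan-leukocyte CD45 gene, and the stem cell transcription factor Meis1 were above every wild-type library in 5 of 5 Osmr-/- libraries, at 0.69 and 0.53 (limma adjusted p = 0.129 and 0.154). The next by p, the stem cell marker Procr, lay below 0 at -0.79 (limma adjusted p = 0.182).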

How the data were processed

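The authors trimmed reads with Trimmomatic 0.36.6, checked them with FastQC 0.72, aligned them to mm10 with HISAT2 2.1.0, counted them with HTSeq 0.9.1 and compared them with the DESeq2 wrapper 2.11.40.6, per the submitters' processing notes. The annotation and strand setting were not given in the sources used here. What was deposited as expression signal is the count per gene divided by a size factor; the authors also deposited log2 scale values (rlog and VST) and a comparison table with fold changes, its Wald score, p-value and adjusted p-value, whose sign was turned here to Osmr-/- over wild type. Dividing by the value of 1 read gave back whole reads (largest distance from whole 1.4e-09), which edgeR 4.0.16 and DESeq2 1.42.0 used as alternatives.

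The main test was limma 3.58.1 (lmFit, eBayes with trend) with genotype alone, a pseudocount of 1, a minimum of 10 in 5 libraries, Benjamini-Hochberg adjustment and a threshold of 0.05. It was run on simulated data in which all genes shared 1 spread. The receptor genes had within-group log2 SDs of 0.459 to 2.17. That run therefore does not show how the test performs for the more variable of them. On this scale the fold change of a low gene depends on the pseudocount and on libraries near 0. The text names the receptor genes, Osmr, their ligands, from each other list the genes past the threshold or otherwise the 2 of lowest p, and for each receptor the 2 genes of highest Pearson r. In the progenitor and stem cell lists the next genes by p are also named, because they lay below 0. The receptor genes and gene lists were chosen with earlier results of these data known. The split by label number, the range for near-absent libraries, the spread percentile, the beta chain share and the sequence windows were added after the values were seen. Correlations used 100000 permutations.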

Additional observations from a re-analysis of the deposited data

Results flagged for a closer look

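In 14 groups of values (6 receptor genes on the log2 scale and the Csf2rb2 share, in each genotype), 5 had a lowest or highest library whose gap to its nearest neighbour exceeded Dixon's 95% critical value of 0.625 for 6 libraries or 0.71 for 5. Chance flags about 1 in 20 such groups. Csf1r stood apart in both libraries numbered 1, at a normalised count of 1.04 in the wild type (gap 0.824 of the range) and 9.06 in Osmr-/- (gap 0.828). Csf2rb stood apart in wild-type library 5, at 393 (gap 0.646), and in Osmr-/- library 2, at 37.8 (gap 0.877). Csf2rb2 stood apart in Osmr-/- library 2, at 0 (gap 0.758).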

How the results depend on the processing

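No receptor gene passed the threshold in any of the 26 other settings run; at a stricter minimum of 50, Il3ra was not tested. Over these settings the lowest adjusted p was 0.105 for Csf3r (highest 0.889) and 0.342 for the other receptor genes. Csf2rb kept its sign in all of them, from 0.14 to 0.93. The log2 fold change of Csf1r turned to 0.066 with the replicate block, which also takes out the unpaired wild-type library 4 and equals the value without that library, to 0.085 with the label number set as covariate and to 0.61 within libraries 1 to 3. That of Csf2rb2 turned to 0.19 with a pseudocount of 10, 0.19 on rlog values, 0.16 on VST values, 0.74 in edgeR, 0.73 in DESeq2 and 1.45 within libraries 4 to 6. That of Csf3r turned to -0.19 within libraries 4 to 6 and that of Il3ra to 0.90 within libraries 1 to 3. Leaving out 1 library at a time gave ranges of -1.04 to 0.54 for Csf1r, -0.32 to 0.10 for Csf2ra (above 0 without Osmr-/- library 3), 0.25 to 0.93 for Csf2rb, -0.88 to 1.03 for Csf2rb2 (above 0 without Osmr-/- library 2), 0.56 to 0.92 for Csf3r and -1.84 to -0.45 for Il3ra.

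Over all genes, limma called 3; the count was 55 with a pseudocount of 10, 56 with quantile scaling, 69 on rlog values, 66 on VST values, 674 in DESeq2, 337 with the number set as covariate, and 0 to 125 when 1 library was left out (125 without wild-type library 6). It was 0 without a filter (2779 genes at an unadjusted p under 0.05), 0 at a minimum of 50 (2122), 0 with the replicate block (2418), 0 within libraries 1 to 3 (2933) and 0 within libraries 4 to 6 (1384). The cause was not tested. Samples that share a label number did not deviate together (correlations of 0.0203 to 0.0986, and only number 3 correlated best with its own number), so the numbers were not taken as pairs. The within-set fits and the fit without both libraries numbered 1 were chosen after seeing the data. With 6 and 5 mice and receptor transcripts at mean normalised counts of 19.8 to 259, the 95% intervals of Csf1r, Csf2rb2 and Il3ra span over 4 log2 units, and a difference of the size seen for Csf3r was not resolved.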
